A study of Mus musculus with 10 samples.

Results

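The proteasome genes described here are the 42 rows, of 20692 in the count table, whose symbol is Psma, Psmb, Psmc, Psmd or Psme followed by a number. Within them, Psmb8, Psmb9, Psmb10, Psme1 and Psme2 form the immunoproteasome group of 5 genes. The other 37 are mostly subunits and factors of the standard proteasome, with the testis-type Psma8 and the activators Psme3 and Psme4 among them. Polyadenylated RNA came from ventricular apexes of wild-type FVB/NJ mice aged 9 weeks, all labelled female; another label calls the tissue whole heart. Of the 10 libraries, 5 came from sham-operated mice and 5 from mice 1 week after transverse aortic constriction (TAC), which narrows the aortic arch and loads the left ventricle with pressure. The comparison asks which transcripts differ after that week. No animal carries a transgene or deletion by the labels. The design text counts mice, so each library is taken as 1 animal, although the labels carry no animal identifiers, and p-values measure only the spread between these libraries.

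The proteasome is the main protease of the cytosol and nucleus for proteins tagged with ubiquitin. Its 20S core is a stack of rings, with alpha subunits forming the outer gates and beta subunits the inner chamber, where Psmb5, Psmb6 and Psmb7 carry the catalytic sites. The 19S particle caps the core, binds ubiquitin chains and feeds unfolded proteins in with a ring of ATPases (Psmc genes), held by non-ATPase subunits (most Psmd genes). Interferon induces Psmb8, Psmb9 and Psmb10, which replace Psmb5, Psmb6 and Psmb7 in newly made cores. It also induces Psme1 and Psme2, the subunits of the PA28 activator, and the resulting immunoproteasome cuts peptides for display on class I molecules. In heart muscle the ubiquitin-proteasome system takes part in the turnover of sarcomere proteins.

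Each library holds 7410967 to 10126574 counts. Levels are CPM, each count divided by its TMM-scaled library total and set to a common size, as mean ± SD over 5 libraries. The log2 fold change, log2FC, compares TAC with sham and carries its standard error (SE). The adjusted p is that of the edgeR quasi-likelihood test, corrected by Benjamini and Hochberg over all 12001 genes tested. The library labelled TAC replicate 1 went against the sex on its label, with 14 counts of Xist, against 1042 to 1561 in the other 9 libraries, and with 155 of the Y-linked Ddx3y against 0 elsewhere. The defining transcripts of heart muscle were present throughout, with 10 cardiomyocyte markers summing to between 74990 and 125033 CPM in every library. Results that rest on the library labelled TAC replicate 1 are given with and without it.

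Changes in the proteasome genes after 1 week of TAC were small. The log2FC values of the inducible catalytic subunits were above 0 and those of their constitutive counterparts below 0. Under TMM scaling, however, Psmb8 was called without Psmb5, and Psmb6 and Psmb7 were called without Psmb9 and Psmb10. Of the 42 genes, 41 had enough counts to be tested. Under TMM scaling 1 of them, Psmb8, rose, 10 fell and 30 did not pass an adjusted p of 0.05 by edgeR. Over all tested genes 18.8% were higher and 17% lower. The share of the proteasome genes called in either direction, 26.8%, was below the 35.8% of all tested genes. Their median log2FC was -0.10, and 34 of the 41 values were below 0, beside a median of 0.00 and 49.6% below 0 over all tested genes. Without the library labelled TAC replicate 1, 1 proteasome gene was called higher and 7 lower, with Psma1, Psmc5 and Psmd12 no longer called. Of all 12094 genes tested in that fit, 2020 were higher and 1822 lower.

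Where the proteasome values lay against 0 depended on the scaling. A change of scaling moves all log2FC values by nearly the same amount. The distance of the proteasome values from the median of all genes was therefore bound to change little. With only the library totals as scaling, the all-gene median log2FC went from 0.00 to 0.11 and that of the proteasome genes moved to 0.00. Of the proteasome values 20 of 41 were then below 0, beside 4112 of 12001 over all tested genes. Under those totals Psme1 alone fell and Psmb8 and Psmb10 rose, with 27.1% of all tested genes higher and 9.66% lower. Relative to the median of all genes, the proteasome genes lay at -0.10 under TMM and -0.11 under library totals. As an unscaled share, the 42 genes together took 0.300% ± 0.0066 of all counts in sham (SD, n = 5) and 0.300% ± 0.00319 in TAC (SD, n = 5), with ranges of 0.289% to 0.307% and 0.296% to 0.303% that overlap. The TMM factors ran from 0.943 to 1.006 in sham and from 0.994 to 1.065 in TAC, so the scaling itself differed between the groups.

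**Figure D1:**
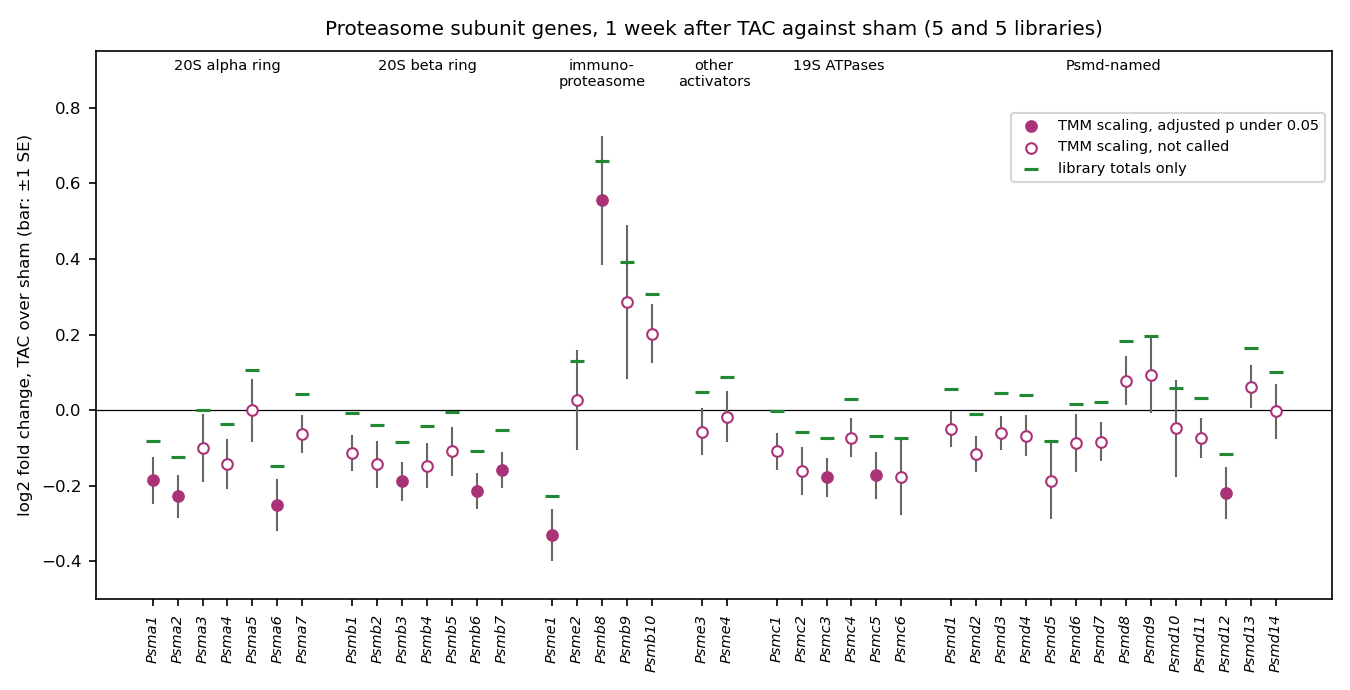
Log2 fold change (TAC over sham, vertical axis) of each of the 41 tested proteasome genes, grouped by role. Circles with ±1 SE use TMM scaling and are filled where the adjusted p is under 0.05; green bars use library totals only. Psmb8 is the only filled circle above 0; 10 lie below 0 with TMM scaling, whereas with library totals the values centre on 0.00 and Psme1 alone stays called lower.

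Psmb8, the inducible catalytic subunit that takes the place of Psmb5, was the only proteasome gene called higher under TMM scaling. Its level was 9.12, 15.2, 16.3, 12.1 and 10.5 CPM in sham replicates 1 to 5 and 25.3, 16.3, 18.3, 17.1 and 15.4 CPM in TAC replicates 1 to 5. The groups overlapped: 4 TAC libraries lay above the highest sham library, TAC replicate 5 lay below sham replicate 3, and the library labelled TAC replicate 1 was far above the rest. Psmb8 rose 1.47-fold, from 12.7 ± 3.05 to 18.5 ± 3.97 CPM (log2FC 0.56 ± 0.17, edgeR adjusted p = 0.022). Without the library labelled TAC replicate 1 the log2FC was 0.42 (edgeR adjusted p = 0.0484). The call ended without sham replicate 1 (adjusted p = 0.0505) and without sham replicate 5 (adjusted p = 0.0587). Of the Psmb8 exon bases 14.7% are shared with an antisense gene, Gm20496, and the libraries do not keep the strand.

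Psmb10 and Psmb9, the other inducible catalytic subunits, had log2FC values above 0 that did not pass. Psmb10 stood at 35.3, 44.8, 40.7, 38.2 and 39.5 CPM in sham replicates 1 to 5 and at 52.1, 42.1, 44.6, 46.8 and 42.4 CPM in TAC replicates 1 to 5. Sham replicate 2 lay among the TAC libraries, and the library labelled TAC replicate 1 was again the highest. The log2FC of Psmb10 was 0.20 ± 0.08 (edgeR adjusted p = 0.0577), and 0.15 without the library labelled TAC replicate 1 (edgeR adjusted p = 0.135). Psmb10 passed with library totals only (0.31, edgeR adjusted p = 0.0176), without sham replicate 2 (adjusted p = 0.0262) and without TAC replicate 5 (adjusted p = 0.0483).

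Psmb9, which takes the place of Psmb6, was the most variable member of the group in sham. Its level was 4.40, 7.32, 10.7, 5.49 and 6.64 CPM in sham replicates 1 to 5 and 9.82, 6.52, 7.59, 8.46 and 9.22 CPM in TAC replicates 1 to 5. The highest of all 10 libraries was sham replicate 3, and the groups overlapped widely. The log2FC was 0.29 ± 0.20 (edgeR adjusted p = 0.299), and 0.23 without the library labelled TAC replicate 1 (edgeR adjusted p = 0.459). Psmb9 passed only without sham replicate 3 (0.49, adjusted p = 0.0439). Raw counts of Psmb9 were between 42 and 85 a library, which limits its precision.

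Of the PA28 subunits, Psme1 was called lower and Psme2 was not called. Psme1 stood at 118, 116, 142, 137 and 134 CPM in sham replicates 1 to 5 and at 95.5, 109, 100.4, 108 and 102 CPM in TAC replicates 1 to 5. Every TAC library lay below every sham library, as was so for 11.6% of all tested genes. Psme1 fell from 129 ± 11.8 to 103 ± 5.71 CPM (log2FC -0.33 ± 0.07, edgeR adjusted p = 0.0024), the smallest adjusted p of the proteasome genes. It was called lower under all 19 alternative settings, also with library totals only (-0.23, edgeR adjusted p = 0.0119) and without the library labelled TAC replicate 1 (-0.30, edgeR adjusted p = 0.0051).

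Psme2, its partner in the PA28 ring, gave 8.80, 9.39, 11.5, 9.61 and 8.01 CPM in sham replicates 1 to 5 and 7.05, 10.7, 9.88, 9.92 and 10.5 CPM in TAC replicates 1 to 5. The groups overlapped over most of their range, and the library labelled TAC replicate 1 was the lowest of all 10. The log2FC was 0.03 ± 0.13 (edgeR adjusted p = 0.897), and 0.12 without the library labelled TAC replicate 1 (edgeR adjusted p = 0.453). The Psme2 value is uncertain, because 82.5% of its transcript has a near-identical copy at another locus, Psme2b, and reads shared by both can be lost or split in counting. Psme1 has no such copy, and only 0.634% of its exon bases are shared with a neighbour, Emc9.

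**Figure D2:**
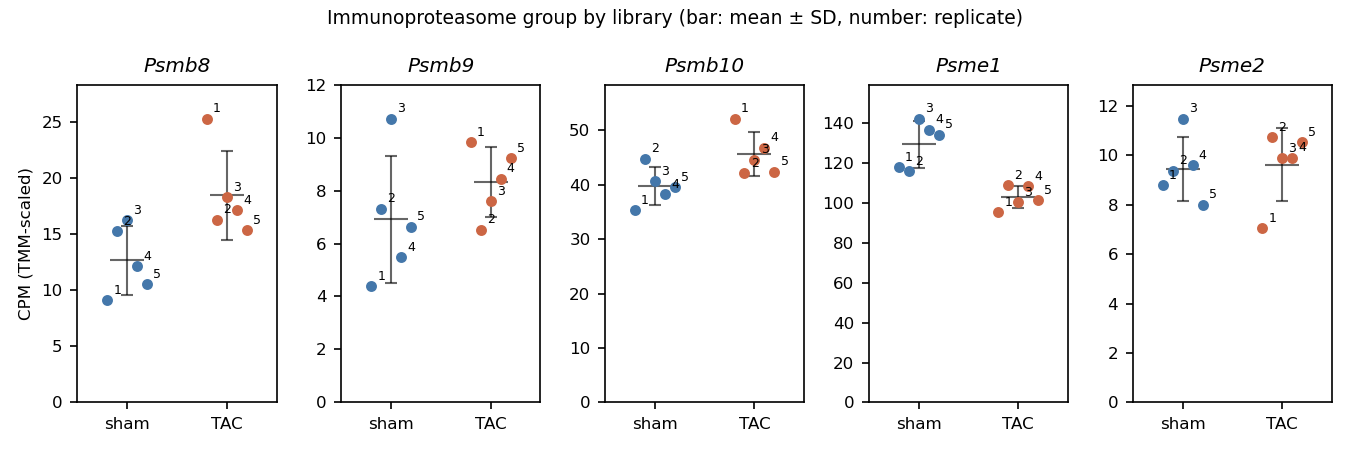
CPM (vertical axis, TMM-scaled) of the 5 immunoproteasome genes in the 5 sham (blue) and 5 TAC (orange) libraries, with replicate numbers; black bars are mean ± SD. Psme1 is lower in all TAC libraries than in any sham library, while Psmb8, Psmb9, Psmb10 and Psme2 overlap between the groups, and the library labelled TAC replicate 1 is the highest TAC library for Psmb8, Psmb9 and Psmb10 and the lowest for Psme2.

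A ratio of 2 transcripts within a library needs no scaling between libraries. Per length of the principal transcript, Psmb8 stood at 0.0513, 0.0917, 0.0913, 0.0663 and 0.0563 of Psmb5 in sham replicates 1 to 5 and at 0.161, 0.0862, 0.117, 0.1004 and 0.1001 in TAC replicates 1 to 5. In 4 of 5 TAC libraries the ratio was above every sham library, and TAC replicate 2 was the exception. The mean ratio was 0.0714 ± 0.0191 in sham and 0.113 ± 0.0289 in TAC (SD, n = 5), 1.58-fold higher in TAC, or 1.41-fold without the library labelled TAC replicate 1. The level of this ratio is uncertain, since near-identical copies of Psmb5 can take some of its reads. The aligners listed for sham and TAC differ, so this loss could differ between the groups and the fold is uncertain too. Its size was not tested.

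Psmb10 stood at 0.302 ± 0.0328 of Psmb7 in sham and 0.388 ± 0.0513 in TAC (SD, n = 5), which is 1.28-fold higher, or 1.21-fold without the library labelled TAC replicate 1. Here 3 of 5 TAC libraries lay above every sham library. The ratio of Psmb9 to Psmb6 was 0.031 ± 0.0101 in sham and 0.0436 ± 0.00781 in TAC, with 2 of 5 TAC libraries above every sham library. Its mean was 1.41-fold higher in TAC, or 1.345-fold without the library labelled TAC replicate 1. By these per-length ratios Psmb10 was the most abundant of the inducible subunits relative to its counterpart in both groups, and each inducible subunit stayed below its counterpart in every library. With union exon lengths, the ratio of Psmb10 to Psmb7 reached 1.07 in the library labelled TAC replicate 1. Psme2 to Psme1, a ratio that carries the uncertainty of Psme2, was 0.0847 ± 0.0102 in sham and 0.108 ± 0.0135 in TAC, and 4 of 5 TAC libraries lay above every sham library. The ratios combine genes chosen together and are given without a test.

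**Figure D3:**
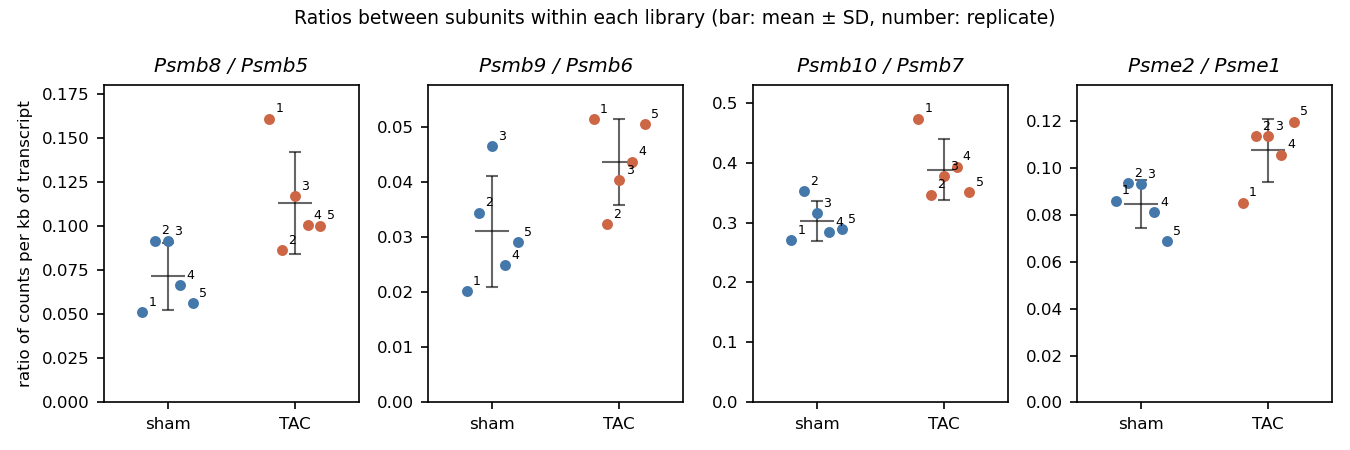
Ratio of counts per kb of transcript (vertical axis) of each inducible catalytic subunit to its constitutive counterpart, and of Psme2 to Psme1, in the 5 sham (blue) and 5 TAC (orange) libraries; black bars are mean ± SD and numbers are replicates. All 4 mean ratios are higher in TAC, and in each at least 1 TAC library lies within the sham range.

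Promoter windows of RefSeq (build GRCm38.p6, from 250 bases before to 50 after the annotated start) were found for 35 of the 42 genes and not for Psma8, Psmb1, Psmb2, Psmb7, Psmc3, Psmd3 and Psmd7. They are shown for Psmb8 and Psme1, the immunoproteasome genes that were called, for Psmb9, which shares its promoter with Tap1, and for the constitutive counterparts Psmb5 and Psmb6. Capitals mark a gamma-activated site (TTCNNNGAA, a site of the interferon gamma response), an interferon-stimulated response element (GAAA, any 2 bases, GAAA) or an antioxidant response element (TGACNNNGC, bound by Nfe2l1 or Nfe2l2 with a small Maf partner) on either strand. All are written 5′ to 3′ in the direction of the gene.
Psmb8, chr17:34197945-34198244, plus strand: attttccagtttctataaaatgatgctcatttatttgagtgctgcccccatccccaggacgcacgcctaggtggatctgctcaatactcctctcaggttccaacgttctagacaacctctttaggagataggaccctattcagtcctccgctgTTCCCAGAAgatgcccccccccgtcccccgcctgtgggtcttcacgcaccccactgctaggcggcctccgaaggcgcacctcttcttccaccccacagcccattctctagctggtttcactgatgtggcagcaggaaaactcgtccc
Psmb9, chr17:34187281-34187580, minus strand: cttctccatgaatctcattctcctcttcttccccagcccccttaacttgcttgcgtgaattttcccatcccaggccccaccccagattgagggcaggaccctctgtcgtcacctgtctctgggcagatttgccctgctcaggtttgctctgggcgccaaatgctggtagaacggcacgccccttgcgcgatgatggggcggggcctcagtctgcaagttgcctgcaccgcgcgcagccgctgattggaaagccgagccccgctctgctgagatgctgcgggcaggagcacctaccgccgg
Psme1, chr14:55578244-55578543, plus strand: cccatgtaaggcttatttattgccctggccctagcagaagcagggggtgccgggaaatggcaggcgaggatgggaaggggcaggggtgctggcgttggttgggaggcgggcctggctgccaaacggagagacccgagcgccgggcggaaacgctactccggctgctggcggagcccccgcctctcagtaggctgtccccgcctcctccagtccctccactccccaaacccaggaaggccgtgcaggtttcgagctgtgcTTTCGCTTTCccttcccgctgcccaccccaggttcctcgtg
Psmb5, chr14:54617946-54618245, minus strand: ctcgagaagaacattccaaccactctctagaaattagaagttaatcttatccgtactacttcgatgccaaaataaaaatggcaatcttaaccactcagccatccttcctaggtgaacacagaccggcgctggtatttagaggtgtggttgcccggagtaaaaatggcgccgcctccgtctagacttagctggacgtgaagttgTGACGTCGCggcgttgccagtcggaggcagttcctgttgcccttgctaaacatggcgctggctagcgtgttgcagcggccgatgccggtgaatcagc
Psmb6, chr11:70525107-70525406, plus strand: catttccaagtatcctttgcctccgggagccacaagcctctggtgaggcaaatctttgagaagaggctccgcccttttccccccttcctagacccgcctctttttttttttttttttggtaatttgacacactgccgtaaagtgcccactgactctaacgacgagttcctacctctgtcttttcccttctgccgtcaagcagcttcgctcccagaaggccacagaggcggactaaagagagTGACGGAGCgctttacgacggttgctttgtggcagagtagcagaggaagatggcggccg

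The letters of the gamma-activated site were found in the windows of Psmb8 and of Psmd2, 2 of 35, against 8.42% of all 27025 RefSeq windows of this length. Those of the interferon-stimulated response element were in Psme1, Psmb3, Psmd4 and Psmd9, 4 of 35, against 3.49% of all windows. The antioxidant response element, the class of site through which Nfe2l1 acts on proteasome genes, was in Psmb5, Psmb6, Psmc6, Psmd9, Psmd12 and Psme4, 6 of 35, against 12.4% of all windows. The CCAAT box, the NF-Y motif CCAAT, was in 13 of 35, or 37.1%, against 38% of all windows. Psme1, which fell, and Psmb8, which rose, both carry letters of an interferon-type motif, and Psmb9, Psmb10 and Psme2 carry neither of them in these windows. In the RefSeq order on chromosome 17, Psmb9, Tap1, Psmb8 and Tap2 follow each other, and Psmb9 and Tap1 start 226 bases apart on opposite strands, so that 275 bases of their windows are shared. Psme1 and Psme2 lie on chromosome 14 with Emc9 as the only protein-coding gene between them. These matches describe letters in a window and show no binding.

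In the alpha ring of the 20S core, Psma2, Psma6 and Psma1 fell, 3 of 7 tested genes, against 17% of all tested genes lower. The other 4 did not pass (median log2FC of the 7 genes -0.14 with TMM scaling and -0.04 with library totals). Psma2 stood at 43.2, 47.2, 43.4, 45.5 and 45.0 CPM in sham replicates 1 to 5 and at 37.0, 38.9, 35.9, 41.3 and 38.3 CPM in TAC replicates 1 to 5. No TAC library reached the lowest sham library, as was so for 11.6% of all tested genes. Its log2FC was -0.23 ± 0.06 (edgeR adjusted p = 0.0074). Psma6 also had every TAC library below every sham library, with 39.8 to 48.5 CPM in sham and 33.4 to 38.7 CPM in TAC (log2FC -0.25 ± 0.07, edgeR adjusted p = 0.0121). Psma1 overlapped between the groups (33.2 to 36.8 CPM in sham, 28.8 to 33.6 CPM in TAC, edgeR adjusted p = 0.0328), and its call was kept in 4 of 10 fits without a library. It was not called without the library labelled TAC replicate 1 (edgeR adjusted p = 0.074). With library totals Psma2, Psma6 and Psma1 were not called (adjusted p = 0.131, 0.131 and 0.363).

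Psma3, Psma4, Psma5 and Psma7 had log2FC values between -0.14 and 0.00 that did not pass. Psma5, at 29.8 ± 2.85 CPM in sham and 29.7 ± 2.80 CPM in TAC, was the one whose group means lay closest together. Reads of Psma3, Psma4 and Psma5 may be shared, since 32.5%, 66.9% and 76.5% of their transcripts have near-identical copies elsewhere. Psma8, a testis-type alpha subunit, had 0 to 3 counts in each library and was not tested.

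In the constitutive beta ring Psmb6, Psmb3 and Psmb7 were called lower, 3 of 7 genes, against 17% of all tested genes. The other 4 missed the threshold (median log2FC of the 7 genes -0.15 with TMM scaling and -0.04 with library totals). Psmb6, the catalytic subunit with caspase-like specificity, stood at 129, 126, 136, 130 and 135 CPM in sham replicates 1 to 5 and at 113, 119, 111, 114 and 108 CPM in TAC replicates 1 to 5. The groups did not overlap, with all TAC libraries lower, as was so for 11.6% of all tested genes. Psmb6 fell from 131 ± 4.42 to 113 ± 4.07 CPM (log2FC -0.21 ± 0.05, edgeR adjusted p = 0.004), and with library totals it was not called (-0.11, edgeR adjusted p = 0.0798). Psmb7, the subunit with trypsin-like specificity, went from 116 ± 3.57 to 104 ± 4.04 CPM (log2FC -0.16 ± 0.05, edgeR adjusted p = 0.0212), again without overlap, and its call ended without sham replicate 5 (adjusted p = 0.0534). Of its exon bases 11.8% are shared with Nek6.

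Psmb3, a structural beta subunit, had a log2FC of -0.19 ± 0.05 (edgeR adjusted p = 0.0132), although 80.7% of its transcript has near-identical copies elsewhere. Psmb5, the chymotrypsin-like subunit and target of the inhibitor bortezomib, did not pass. It gave 98.2, 91.8, 98.4, 101 and 103 CPM in sham replicates 1 to 5 and 86.9, 104.5, 86.7, 94.2 and 84.7 CPM in TAC replicates 1 to 5, with TAC replicate 2 the highest of all (edgeR adjusted p = 0.208). Its transcript too is near-identical to other loci over 88.4% of its length. Psmb1, Psmb2 and Psmb4 had log2FC values of -0.11, -0.14 and -0.15 and did not pass, and in Psmb1 all TAC libraries lay below all sham libraries.

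The 6 ATPases that form the unfolding ring of the 19S particle had log2FC values between -0.18 and -0.07. Psmc3 and Psmc5 were called lower, 2 of 6 genes, against 17% of all tested genes. Psmc3, the most abundant of them per length, stood at 193, 180.1, 200.4, 182 and 189 CPM in sham replicates 1 to 5 and at 157, 175, 165, 174 and 164 CPM in TAC replicates 1 to 5. All TAC libraries were below all sham libraries, as in 11.6% of all tested genes (log2FC -0.18 ± 0.05, edgeR adjusted p = 0.0164). Of the Psmc3 exon bases 8.25% are shared with Slc39a13. Psmc5 passed narrowly (edgeR adjusted p = 0.0432) and was called in 2 of 10 fits without a library. It was not called without the library labelled TAC replicate 1 (edgeR adjusted p = 0.0848). The median of the 6 was -0.17 with TMM scaling and -0.06 with library totals, and none was called with library totals.

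The 14 Psmd genes encode the base and lid of the 19S particle and some assembly chaperones. Psmd12, a lid subunit, was the only one of the 14 called lower, against 17% of all tested genes (60.2 to 69.1 CPM with a median of 66.9 in sham, 51.0 to 63.2 CPM with a median of 54.2 in TAC, log2FC -0.22 ± 0.07, edgeR adjusted p = 0.0261). It overlapped between the groups and lost its call without the library labelled TAC replicate 1 (adjusted p = 0.0512), 1 of 5 among the 10 leave-one-out fits in which its call ended. The median of the 14 genes was -0.06 with TMM scaling and 0.04 with library totals. Psmd8, Psmd9 and Psmd13 had values above 0, at 0.08, 0.09 and 0.06, and none passed. Psmd2, a large scaffold of the base, had all TAC libraries below all sham libraries, as did 11.6% of all tested genes, but did not pass (log2FC -0.12 ± 0.05, edgeR adjusted p = 0.0797). Psmd14, the lid enzyme that removes ubiquitin chains, was at 19.9 ± 1.48 CPM in sham and 19.9 ± 1.13 CPM in TAC.

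The activators outside the interferon-induced pair did not pass. Psme3, the nuclear PA28 gamma, was at 60.5 ± 4.73 CPM in sham and 58.2 ± 1.89 CPM in TAC (edgeR adjusted p = 0.507). Psme4, the large activator PA200, was at 135 ± 13.2 CPM in sham and 133 ± 5.21 CPM in TAC (edgeR adjusted p = 0.869). Over all 41 tested genes, 9 had every TAC library below every sham library and 0 had every TAC library above, beside 11.6% and 12.2% of all tested genes.

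Although the subunits of one particle are present in fixed numbers, their transcripts differed widely in level per kb of transcript. Within the constitutive 20S core these levels ran in sham from 10.96 CPM per kb for Psma3 to 164 CPM per kb for Psmb6, a 14.99-fold range, and in TAC from 10.2 to 142 CPM per kb for the same genes. The constitutive beta subunits (median 109.6 CPM per kb in sham) had a higher median than the alpha subunits (29.2 CPM per kb in sham), with overlapping ranges. The 19S ATPases ran from 15.6 CPM per kb for Psmc6 to 116 CPM per kb for Psmc3 in sham. Among the Psmd genes Psmd4, a ubiquitin receptor, was highest at 89.8 CPM per kb, and the assembly chaperones Psmd5, Psmd10 and Psmd9 were lowest at 2.06, 3.59 and 6.59 CPM per kb in sham. Psme1, at 116 CPM per kb in sham, was by far the highest of the immunoproteasome group, followed by Psmb10 at 30.3 CPM per kb. Near-identical copies that cover most of the transcript of 8 genes can lower their counts, so their place in this order is uncertain. Psma3, the lowest of the core, is not among them but has near-identical copies at 8 other loci over 32.5% of its transcript. Its level, and so the width of the range, is uncertain too. These ranges and medians also depend on the transcript length taken for each gene. Psma3 and Psma2 were scaled by 2846 and 2911 bases, against 914 for Psma7 and 798 for Psmb6. Before scaling by length, Psma3 was at 31.2 CPM and Psmb6 at 131 CPM in sham.

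**Figure D4:**
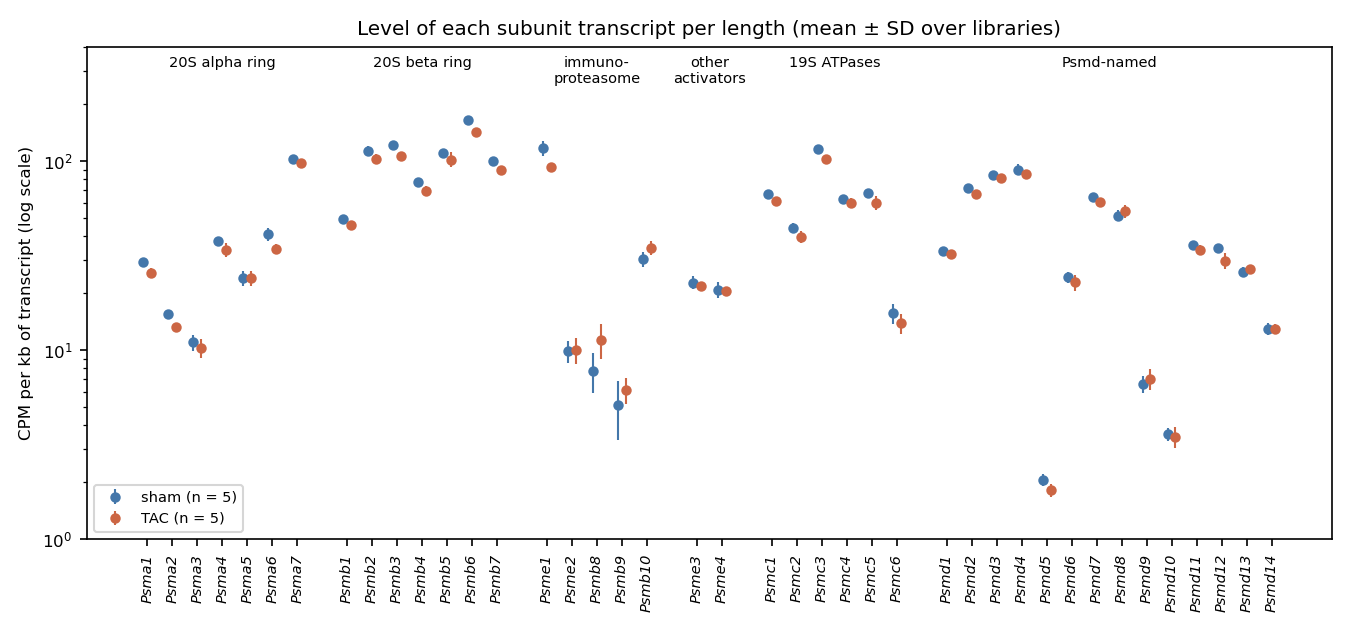
CPM per kb of principal transcript (vertical axis, log scale) of the 41 tested proteasome genes, grouped by role, as mean ± SD over 5 sham (blue) and 5 TAC (orange) libraries. Constitutive beta subunits lie between 45.8 and 164 CPM per kb, Psmb9 is at 5.11 in sham and 6.16 in TAC, and the levels of the groups differ far less than those of the genes.

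Within a group, proteasome transcripts varied less between libraries than the median gene. The median coefficient of variation over libraries was 5.91% in sham and 6.15% in TAC for the 41 genes, against 10.2% and 11.4% for all tested genes, which include many with lower counts. The highest values were in the immunoproteasome group: Psmb9 and Psmb8 had coefficients of 34.7% and 24.1% in sham, and 15.7% and 21.5% in TAC.

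Markers of several other cell types were higher in TAC, as Psmb8 was. The 5 leukocyte markers summed to 31.1, 38.0, 38.9, 34.4 and 36.6 CPM in sham replicates 1 to 5 and to 115, 53.0, 69.3, 58.1 and 60.6 CPM in TAC replicates 1 to 5. All 4 tested leukocyte markers rose, and over all tested genes 18.8% were higher and 17% lower. All TAC sums were above all sham sums, and the library labelled TAC replicate 1, the highest for Psmb8 and Psmb10, was also the highest here. Of 11 tested macrophage and monocyte markers 10 rose, with summed levels of 264 to 305 CPM in sham and 426 to 691 CPM in TAC. Of 8 fibroblast markers 7 rose (median log2FC 1.52), from sums of 902 to 1365 CPM in sham to 2946 to 8621 CPM in TAC. The 5 atrial cardiomyocyte markers summed to 96.6 to 192 CPM in sham and 511 to 1242 CPM in TAC. Of the 2 tested, 1 was called higher (log2FC 2.48) and the other was at -0.15, so the sum shows no shared rise of these markers. The library labelled TAC replicate 1 was the highest in the macrophage, fibroblast and atrial sums too. Dendritic cell markers overlapped (29.1 to 42.9 CPM in sham, 36.9 to 43.2 CPM in TAC) with 0 of 2 tested called, and 2 of 8 endothelial markers, 2 of 7 of smooth muscle and pericytes and 0 of 5 of erythroid cells were called, all higher. The 11 lymphocyte markers summed to 3.09 to 4.76 CPM in sham and 4.28 to 6.13 CPM in TAC, with Klrb1c at 0 in all libraries. Only Cd4, named after its value was seen, had enough counts to be tested, and it rose (log2FC 1.11, edgeR adjusted p = 0.0051). The 6 neutrophil markers overlapped, at 4.76 to 12.7 CPM in sham and 6.39 to 11.1 CPM in TAC, with Ly6g at 0 throughout and 1 of 2 tested called higher. In the opposite direction, the 10 cardiomyocyte markers summed to 104184 to 125033 CPM in sham and 74990 to 101956 CPM in TAC, and 7 of them fell. In tissue RNA, fewer cells of a type and less RNA per cell cannot be told apart, and the part of these cell types in the values of Psmb8, Psmb10, Psme1 and the 20S genes was not tested.

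**Figure D5:**
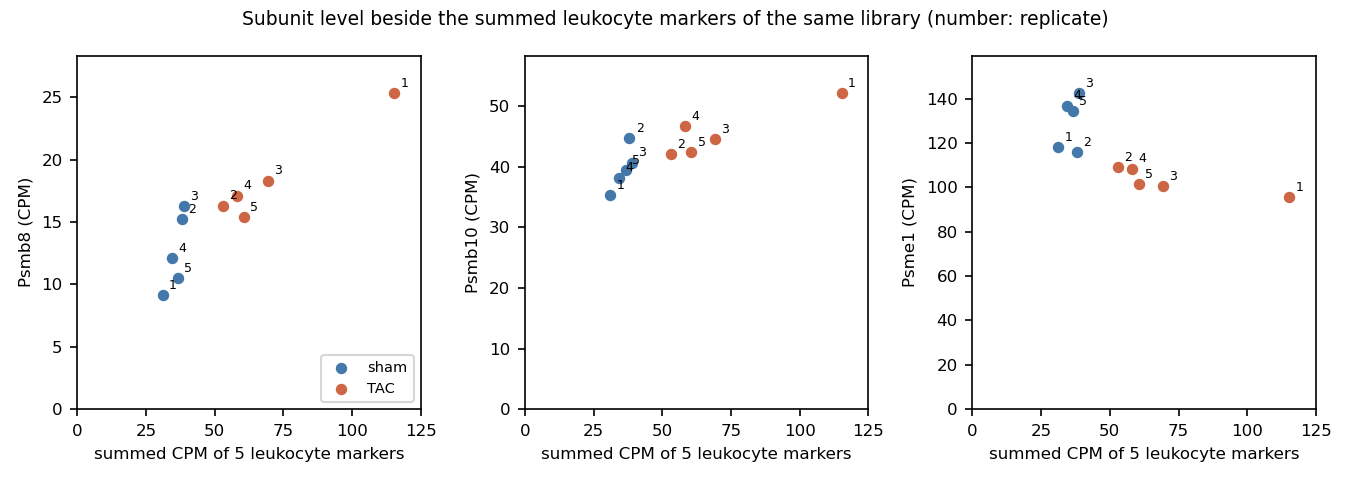
CPM of Psmb8, Psmb10 and Psme1 (vertical axes) against the summed CPM of 5 leukocyte markers (horizontal axis) in the 5 sham (blue) and 5 TAC (orange) libraries, with replicate numbers. The marker sums do not overlap between groups (31.1 to 38.9 and 53.0 to 115 CPM), and the library labelled TAC replicate 1 is highest in the markers, Psmb8 and Psmb10 and lowest in Psme1.

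Genes that act with the immunoproteasome in class I display moved in 1 direction where they changed. Of 10 tested, 6 rose, 4 missed the threshold and none fell (median log2FC 0.28 with TMM scaling, 0.39 with library totals), against 18.8% of all genes higher. Without the library labelled TAC replicate 1, 5 of them rose, beside 2020 of all 12094 genes tested in that fit. Pdia3 and Tapbp of the peptide-loading complex, B2m, the shared light chain, and H2-K1, a class I heavy chain whose reads may be shared with related genes, had log2FC values of 0.47, 0.33, 0.66 and 0.64. Tap1, the peptide transporter subunit that shares the Psmb9 promoter, rose from 7.66 ± 3.23 to 12.2 ± 3.40 CPM (log2FC 0.69 ± 0.25, edgeR adjusted p = 0.0473), but not without the library labelled TAC replicate 1 (adjusted p = 0.113). Since Psmb9 and Tap1 overlap over 5.79% of the Psmb9 exon bases and the libraries do not keep the strand, a small share of reads cannot be told apart. Tap2 was at 44.1 ± 1.34 CPM in sham and 45.0 ± 2.42 CPM in TAC (edgeR adjusted p = 0.729), and Nlrc5, the class I transactivator, was at 2.19 ± 2.02 and 2.50 ± 1.15 CPM (edgeR adjusted p = 0.747).

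Of 18 tested interferon response genes 11 rose, 7 missed the threshold and none fell (median log2FC 0.70), against 18.8% of all genes higher. The number that rose was 9 without the library labelled TAC replicate 1. Irf1, a factor through which interferon gamma acts on Psmb8 and Psmb9, rose 1.44-fold (edgeR adjusted p = 0.0135). Of 6 tested class II genes none passed.

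Few regulators and helpers of the standard proteasome were called. Of 11 tested assembly and associated factors, 3 fell, 8 missed the threshold and none rose (median log2FC -0.07 with TMM scaling, 0.03 with library totals, where none was called), against 17% of all genes lower. Psmg1 and Psmg2, which form the chaperone that starts the alpha ring, had log2FC values of -0.34 ± 0.09 and -0.28 ± 0.09 (edgeR adjusted p = 0.0116 and 0.0346), and Psmg2 was not called without the library labelled TAC replicate 1 (adjusted p = 0.0549). Shfm1, the small 19S subunit, had a log2FC of -0.18 ± 0.05 (edgeR adjusted p = 0.0192). Pomp, the maturation factor of the beta rings, was at 51.1 ± 3.97 CPM in sham and 50.2 ± 7.25 CPM in TAC.

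Of 7 tested regulators of proteasome genes none rose and Nfe2l1 and Foxo3 fell, against 18.8% of all genes higher and 17% lower. Nfe2l1, the factor that raises proteasome gene transcription when proteasome activity is short, stood at 1101, 949, 942, 979 and 933 CPM in sham replicates 1 to 5 and at 896, 893, 837, 811 and 856 CPM in TAC replicates 1 to 5, without overlap (log2FC -0.19 ± 0.06, edgeR adjusted p = 0.0238). Foxo3 had a log2FC of -0.56 ± 0.13 (edgeR adjusted p = 0.0061). Nfe2l2, a related factor of the antioxidant response, averaged 73.6 ± 5.60 CPM in sham, against 78.8 ± 5.48 CPM in TAC, and missed the threshold (edgeR adjusted p = 0.273). With library totals Foxo3 alone was lower and Nfe2l2 higher (adjusted p = 0.0165 and 0.0294), and Nfe2l1 was not called (adjusted p = 0.258).

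Upstream of the proteasome, Ubb, a polyubiquitin gene, was at 394 ± 38.0 CPM in sham and 425 ± 17.9 CPM in TAC (edgeR adjusted p = 0.246). Of 10 p97 and shuttle genes, which bring substrates to the proteasome, Nsfl1c alone was called lower (log2FC -0.14, edgeR adjusted p = 0.0481). Of 9 muscle ubiquitin ligases 3 were called lower, against 17% of all tested genes. The 3 were Fbxo31, Trim54 and Trim63, with log2FC values of -0.58, -0.27 and -0.35, and Fbxo32 did not pass (-0.54, edgeR adjusted p = 0.0727). With library totals Nsfl1c, Trim54 and Trim63 were not called (edgeR adjusted p = 0.637, 0.146 and 0.0928), whereas Ubb was called higher (0.22, edgeR adjusted p = 0.0179).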

How the data were processed

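The values deposited by the authors are raw read counts, whole numbers by Ensembl ID, for 10 libraries. Per the submitters' processing notes, sham libraries list TopHat2 2.0.10, Bowtie2, HTSeq and mm10, and TAC libraries list TopHat 1.3.0, Bowtie, HTSeq and both mm9 and mm10, while the ID column's header names GRCm37. Processing thus differs with the groups and cannot be told apart from them. The libraries are not strand-specific, per the labels' protocols. Sham titles lack that word, so the design text of the series gives that group. The row of column totals was left out.

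Counts were tested with edgeR 4.0.16 (R 4.3.3, limma 3.58.1): quasi-likelihood F tests, TMM, filterByExpr defaults (minimum count 10, minimum total 15), no term but group, and an adjusted p (Benjamini-Hochberg) under 0.05 over 12001 genes. The method was also tested on simulated data. Chi-square values per gene between libraries of 1 group lay at 2.66 to 25.1 (20 pairs), so none was taken as a repeat. Lengths are those of the APPRIS principal transcript of GENCODE M21 (GRCm38), used in place of the planned union exon length, which includes retained introns; 41 of the 42 genes matched by ID and Psmb9 by symbol. Near-identical copies were found with blastn (at least 95% identity over at least 100 bases). RLE, library totals, upper-quartile scaling, DESeq2 1.42.0, limma-voom, other filters, robust dispersion, a replicate block and leaving out each library were tried. The genes and lists were chosen with earlier results of these data known. All proteasome genes may be named, with up to 4 genes of smallest adjusted p per other list and a fixed panel. Values of some panel genes are not reported here; the counts include them.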

Additional observations from a re-analysis of the deposited data

Results flagged for a closer look

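In 3 of 90 groups of 5 values (41 genes and 4 ratios, in sham and in TAC), 1 library stood apart from the other 4 by a gap of more than 0.71 of the group's whole range. Chance flags about 1 in 20 such groups. Psmd3 was at 188 CPM in sham replicate 3, against 179 to 181 CPM in the other sham libraries. Psmd1 was at 105 CPM in TAC replicate 2, against 97.7 to 99.9 CPM in the other TAC libraries. Psme2 was at 7.05 CPM in the library labelled TAC replicate 1, against 9.88 to 10.7 CPM in the other TAC libraries.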

How the results depend on the processing

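With library totals only, 2 proteasome genes were called higher (Psmb8 and Psmb10, both of the immunoproteasome group) and 1 lower (Psme1), in place of 1 and 10, and 1159 genes in all were called lower in place of 2040, with 3257 higher in place of 2251. Under that setting 14 of the 41 log2 fold changes changed sign, none of them called with either scaling; the cause was not tested. Leaving out each library in turn gave 0 to 2 proteasome genes higher, all of the immunoproteasome group, and 7 to 11 lower. None was higher without sham replicate 1 or without sham replicate 5, and 2 were higher without sham replicate 2, sham replicate 3 or TAC replicate 5. Fewer samples enter those fits. DESeq2 called 1 higher and 10 lower, with Psmd2 in place of Psma1. Titles give both groups replicate numbers 1 to 5, but same-numbered libraries deviated together with correlations of only -0.0916 to 0.222, with 1 of 5 over 0.1, and 1 sham library correlated best with its own number, so the numbers were not taken as pairs. With replicate number as a block 1 was higher and 8 lower. No call reversed direction under any setting run. The TAC over sham folds of the 3 inducible to constitutive ratios ranged from 1.41 to 1.7 (Psmb8), 1.29 to 1.61 (Psmb9) and 1.21 to 1.34 (Psmb10) when 1 library was left out. With union exon lengths the sham ratios of Psmb8, Psmb9 and Psmb10 were 0.0344, 0.0269 and 0.686. Psmb8, Psmb9, Psme2, Psmd5 and Psmd10 have the fewest counts of the tested genes, and depth limits them most.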

Other observations

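Within the sham group, levels of several immunoproteasome and antigen presentation genes differed between libraries. Sham replicate 3 was the highest sham library for Psmb8 (16.3 CPM), Psmb9 (10.7 CPM), Tap1 (12.7 CPM), Irf1 (32.2 CPM) and Nlrc5 (5.55 CPM). Psmb10, B2m and H2-K1 were instead highest in sham replicate 2, at 44.8, 130 and 55.8 CPM, against 40.7, 104 and 45.6 CPM in sham replicate 3. Sham replicate 1 was the lowest sham library for Psmb8 (9.12 CPM) and Psmb9 (4.40 CPM), with Irf1 at 19.1 CPM and Nlrc5 at 1.26 CPM. The summed leukocyte markers of sham replicates 3 and 1 were 38.9 and 31.1 CPM, the highest and the lowest sham values. Psme1 was also highest in sham replicate 3 (142 CPM) among all 10 libraries. These libraries were picked after their values were seen.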
